A study of Mus musculus with 6 samples.

Results

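The NRF2 and glutathione antioxidant response was examined through 10 genes: Nfe2l2, Keap1, Slc7a11, Gclc, Gclm, Gsr, Txnrd1, Prdx1, Srxn1 and Nqo1. They were taken by gene symbol from a table of 19386 genes, where each symbol occurred on a single row. The RNA came from cultured mouse macrophages, grown from bone marrow freed of red cells in medium with 10% L929 supernatant, a source of macrophage growth factor, and collected on day 11. All 6 cultures were from wild-type C57BL/6 mice, 3 from animals that had been exposed to cigarette smoke and 3 from animals in room air. The labels give no age, smoke dose or length of exposure. They do not say whether the numbered samples of a group came from separate animals, so the splicing p-values measure the spread between these samples only, and those for expression rest on the authors' fit to 24 libraries.

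NRF2, the product of Nfe2l2, is a transcription factor that binds antioxidant response elements in the promoters of genes that detoxify oxidants and electrophiles. Under resting conditions KEAP1 holds NRF2 in the cytoplasm and hands it to a ubiquitin ligase for degradation, and modification of KEAP1 cysteines by electrophiles, of which tobacco smoke holds many, lets NRF2 accumulate. Its targets supply cystine and build glutathione, reduce thioredoxin and peroxiredoxins, and reduce quinones. In macrophages these enzymes buffer the oxidants of the respiratory burst.

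None of the 10 genes passed an adjusted p of 0.05 in the authors' DESeq2 comparison of smoke with room air, against 7.69% of the 12082 genes tested. In the authors' deposited table, 0 of the 10 also had an unadjusted p under 0.05, against 22.8% of all genes tested. Of those tested, 4.15% were called higher and 3.53% lower in the smoke group. The fold change estimates of 7 members were above zero and those of 3 (Nfe2l2, Gclc and Prdx1) below, with a median log2 fold change of 0.10 beside -0.0029 for all genes tested. After removal of a trend in GC content and length, the members' median was 0.05. The standard errors in the authors' deposited table ran from 0.12 for Nfe2l2 to 0.58 for Slc7a11 on the log2 scale, and 7 of the 10 were above the median of 0.21 for all genes tested. The 95% Wald intervals computed from them lay within 2-fold in either direction for 8 members, all but Slc7a11 and Nqo1. They lay within 1.5-fold for 3 members, Nfe2l2, Keap1 and Txnrd1. Changes of a size within a member's interval are compatible with its data. In bulk RNA, fewer cells of a type and less RNA per cell cannot be told apart.

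**Figure D1:**
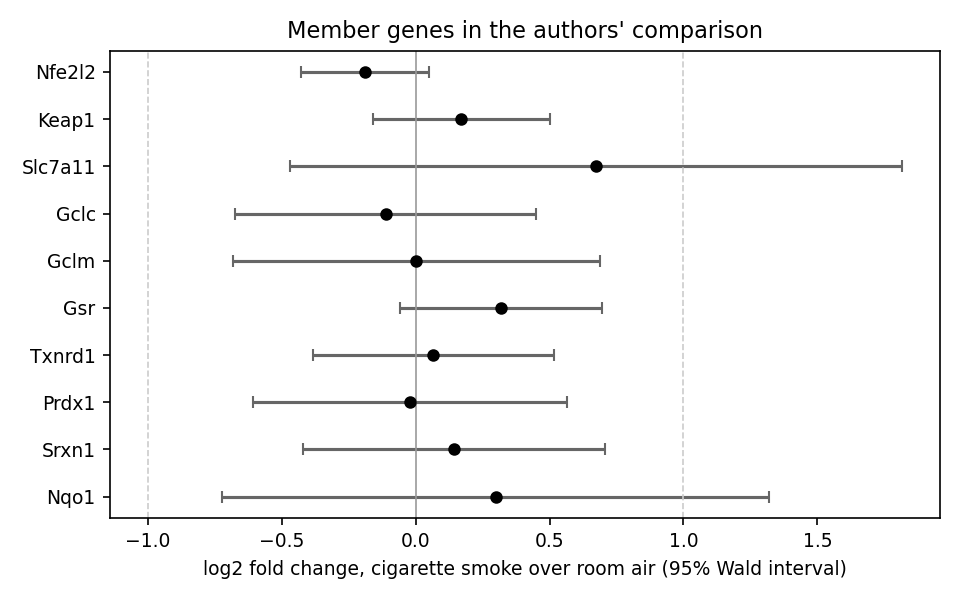
Log2 fold change of each member gene, smoke over room air, from the authors' deposited table, with bars for the 95% Wald interval. Every interval crosses zero, and those of Slc7a11 and Nqo1 are the widest.

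Fold changes over the whole table moved with the base composition and length of the genes, with a Spearman correlation across genes of 0.48 with GC content and of -0.45 with length over 12071 genes, which are not independent replicates. Removal of a smooth trend in both left 0 of the 10 members past the threshold and turned the sign of Keap1, to -0.0086, and of Prdx1, to 0.036. Slc7a11 moved to 1.07, Gclm to 0.27 and Srxn1 to 0.0073, and Nfe2l2 (-0.21), Gsr (0.24), Nqo1 (0.20), Gclc (-0.08) and Txnrd1 (0.07) kept their sign. The marker genes of macrophages were all present, 8 of 8, and their means in the authors' deposited table summed to 52689 normalized counts for room air and to 54621 for smoke. Of the other lists, the table holds 1 of 6 neutrophil, 3 of 4 B cell, 1 of 3 T cell, 0 of 3 erythroid, 4 of 4 stromal and 2 of 4 dendritic markers. Their summed means in that table, room air then smoke, were 0 and 0.195 (neutrophil), 6.31 and 4.14 (B cell), 29.0 and 22.4 (T cell), 42.5 and 9.07 (stromal) and 32.0 and 108.8 (dendritic). The dendritic sum is nearly all Itgax, at 31.7 and 107.8 (adjusted p 0.0571), while the other dendritic marker listed, Zbtb46, stood at 0.32 and 1.02. No marker passed the test, and the part of these cells in the results was not tested.

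The regulators were expressed at different levels. Nfe2l2 (ENSMUSG00000015839.6, chromosome 2, 75675513 to 75704641, minus strand, GRCm38) averaged 2616 normalized counts under room air and 2292 under smoke in the authors' deposited table. These are means over the 3 libraries of a group, for which no value per library was used here, so whether the groups overlap cannot be told. The smoke mean of Nfe2l2 was the lower, by 0.19 on the log2 scale (-0.19, SE 0.12), and the authors' deposited table gives an adjusted p of 0.368. Its interval ran from 0.74 to 1.04 as a fold. That interval was the narrowest of the 10. Keap1 (ENSMUSG00000003308.15, chromosome 9, 21229730 to 21239361, minus strand) averaged 400.5 under room air and 453 under smoke. Its log2 difference in the authors' deposited table was 0.17 (SE 0.17), adjusted p 0.602. Exons of Keap1 share 510 bases with the antisense gene Gm16754, and whether counting used strand is not stated, so reads of the 2 genes cannot be told apart there.

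Among the genes that supply glutathione, the estimates pointed both ways. Slc7a11 (ENSMUSG00000027737.10, chromosome 3, 49892526 to 50443614, minus strand) encodes the light chain of the cystine-glutamate exchanger. In the authors' deposited table it averaged 42.0 under room air and 65.9 under smoke, a low level shared with Nqo1, and the log2 difference was 0.67 (SE 0.58), adjusted p 0.537. The interval of the fold, 0.72 to 3.52, was the widest of the 10.

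Gclc and Gclm encode the catalytic and modifier subunits of glutamate-cysteine ligase, the rate-limiting enzyme of glutathione synthesis. Gclc (ENSMUSG00000032350.9, chromosome 9, 77754535 to 77794485, plus strand) averaged 324 under room air and 300.4 under smoke, and in the authors' deposited table the log2 difference was -0.11 (SE 0.29), adjusted p 0.875. Gclm (ENSMUSG00000028124.15, chromosome 3, 122245557 to 122270732, plus strand) averaged 570.2 and 572 in the authors' deposited table, and its log2 difference was 0.0029 (SE 0.35), adjusted p 0.998. The interval of the Gclm fold was 0.62 to 1.61 before trend removal, which moved its log2 difference to 0.27. Exons of Gclm share 244 bases with the processed pseudogene Gm6061 on the same strand and 296 bases with Gm17494 on the other. Gsr (ENSMUSG00000031584.16, chromosome 8, 33652523 to 33698163, plus strand), glutathione reductase, returns oxidised glutathione to its reduced form. In the authors' deposited table it averaged 324 and 404, with a log2 difference of 0.32 (SE 0.19), an unadjusted p of 0.0981 and, once adjusted, 0.327. That unadjusted p was the lowest among the members.

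The group means of the thioredoxin and peroxiredoxin genes lay close together. Txnrd1 (ENSMUSG00000020250.10, chromosome 10, 82833951 to 82897712, plus strand), cytosolic thioredoxin reductase, averaged 1162 under room air and 1217 under smoke in the authors' deposited table, and the log2 difference was 0.06 (SE 0.23), adjusted p 0.912. Prdx1 (ENSMUSG00000028691.12, chromosome 4, 116685544 to 116700822, plus strand), a peroxiredoxin that removes hydrogen peroxide, averaged 4261 and 4202 in the authors' deposited table, and the log2 difference was -0.02 (SE 0.30), adjusted p 0.980. Srxn1 (ENSMUSG00000032802.8, chromosome 2, 152105516 to 152111376, plus strand), sulfiredoxin, repairs over-oxidised peroxiredoxins. It averaged 589.7 and 652 in the authors' deposited table, and the log2 difference was 0.14 (SE 0.29), adjusted p 0.832. Nqo1 (ENSMUSG00000003849.8, chromosome 8, 107388225 to 107403206, minus strand) reduces quinones and is widely used as a readout of NRF2 activity. The authors' deposited table gives it 50.1 under room air and 62.1 under smoke, a log2 difference of 0.30 (SE 0.52), adjusted p 0.797. The interval of its fold, 0.61 to 2.50, was the widest after that of Slc7a11.

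**Figure D2:**
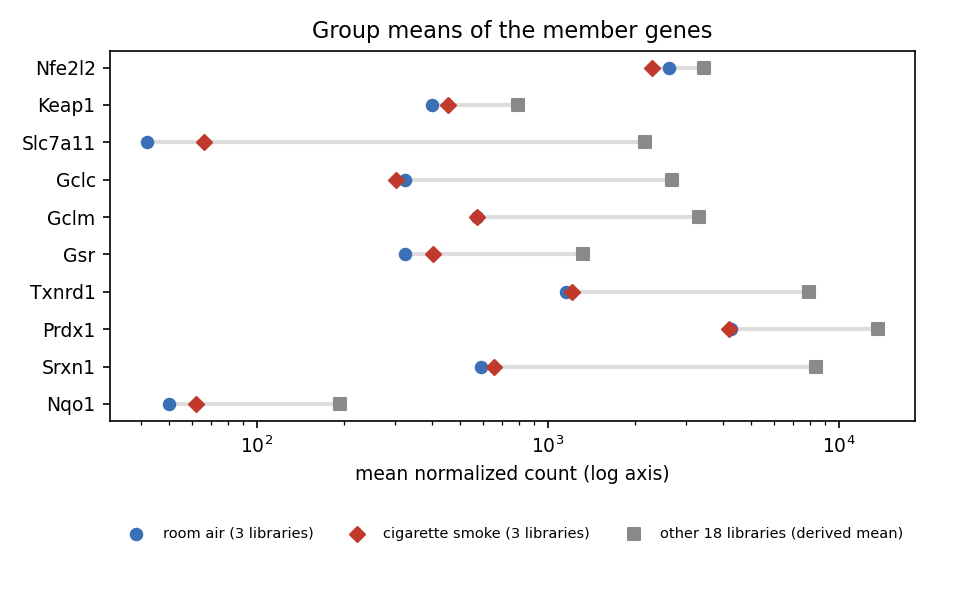
Mean normalized count of each member gene in the room air and smoke groups, and the mean implied for the other 18 libraries of the authors' fit, on a log axis. The room air and smoke points lie farthest apart for Slc7a11, and the points of the other libraries lie to the right of both for every gene.

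Per kilobase of the longest annotated transcript of each gene, the members spanned a wide range of level, and their order was the same in both groups. Prdx1 led with 1858 normalized counts per kilobase in room air and 1832 in smoke, followed by Nfe2l2 with 1057 and 926, computed from the means in the authors' deposited table. Txnrd1 had 321 and 336, and Srxn1 209.7 and 232. Gsr, Keap1, Gclm and Gclc lay close together, between 87.8 and 151 over both groups, and their order cannot be set against a spread between libraries. Nqo1 had 32.3 and 40.0, and Slc7a11 was lowest with 4.55 and 7.15.

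The authors' fit covered 24 libraries, of which 18 are not analysed here and have no condition stated in the sources used here. Their mean can be worked out from the overall mean and the 2 group means in the authors' deposited table. It was over 2-fold above the mean of the 6 macrophage libraries for 8 of the 10 members, against 19.0% of the genes tested. Of 89 other tested genes of the pathway, listed by role below, 33 were also that far above. They included 8 of 16 other NRF2 targets. Slc7a11 stood at 2155 normalized counts there against 53.9 over the 6 libraries, a ratio of 39.9. The ratio was 13.4 for Srxn1, 8.56 for Gclc, 6.65 for Txnrd1 and 5.81 for Gclm. Gsr, Nqo1 and Prdx1 had ratios of 3.63, 3.46 and 3.24. The regulators were closest to the 6 libraries, with 1.85 for Keap1 and 1.4 for Nfe2l2. The median ratio was 4.72 for the members, 1.56 for the 89 other genes of the pathway and 1.09 for all genes tested. These are ratios of means with no spread and no test, and the spread of the 18 libraries entered the standard errors of the authors' fit.

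Promoters of 3 thioredoxin and peroxiredoxin genes are shown with any match to the letters of the antioxidant response element, to which NRF2 binds: Srxn1 and Prdx1 because they held more than 1 match, and a pair of Txnrd1 starts because one held a match and the other none. RefSeq windows on GRCm38.p6, from 250 bases before to 50 after each start, were matched by symbol for 8 of the 10 members, in 10 windows. Each was searched on both strands for TGACNNNGC or TGAGNNNGC. In the lines that follow, 5′ to 3′ on the plus strand, capitals mark each match. Srxn1 is from chr2:152105274-152105573, Prdx1 from chr4:116685349-116685648, and 2 of the 3 Txnrd1 starts are shown, the middle one from chr10:82858956-82859255 and the downstream one from chr10:82860091-82860390, whose exons are compared by junction events described with the splicing data.
Srxn1: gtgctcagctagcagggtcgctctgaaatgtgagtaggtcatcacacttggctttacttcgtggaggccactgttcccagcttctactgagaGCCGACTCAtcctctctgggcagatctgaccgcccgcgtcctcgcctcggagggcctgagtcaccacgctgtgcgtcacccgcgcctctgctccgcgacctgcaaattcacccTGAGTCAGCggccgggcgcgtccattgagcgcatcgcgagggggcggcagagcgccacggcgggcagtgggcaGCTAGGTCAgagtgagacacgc
Prdx1: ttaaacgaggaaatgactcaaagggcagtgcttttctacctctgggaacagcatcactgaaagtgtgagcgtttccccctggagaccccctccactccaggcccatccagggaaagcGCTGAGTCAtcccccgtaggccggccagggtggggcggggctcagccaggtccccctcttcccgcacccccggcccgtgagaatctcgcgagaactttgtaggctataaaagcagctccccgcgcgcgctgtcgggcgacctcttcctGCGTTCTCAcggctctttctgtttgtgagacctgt
Txnrd1, middle start: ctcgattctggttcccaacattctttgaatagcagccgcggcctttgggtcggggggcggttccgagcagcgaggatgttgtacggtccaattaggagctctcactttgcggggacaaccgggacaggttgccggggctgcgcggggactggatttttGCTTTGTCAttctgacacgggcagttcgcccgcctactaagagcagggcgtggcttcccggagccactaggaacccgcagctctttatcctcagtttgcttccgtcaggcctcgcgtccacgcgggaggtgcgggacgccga
Txnrd1, downstream start: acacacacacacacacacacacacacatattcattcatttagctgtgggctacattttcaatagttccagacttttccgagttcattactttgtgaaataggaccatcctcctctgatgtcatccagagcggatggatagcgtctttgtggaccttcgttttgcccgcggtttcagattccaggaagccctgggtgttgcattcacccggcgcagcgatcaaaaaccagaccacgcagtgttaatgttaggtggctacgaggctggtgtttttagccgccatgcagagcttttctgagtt

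Srxn1 held 3 matches, TGAGTCGGC on the opposite strand 158 bases before the start, TGAGTCAGC on the same strand 45 before it, and TGACCTAGC on the opposite strand 28 after it. Prdx1 held TGACTCAGC on the opposite strand 133 bases before the start and TGAGAACGC on the opposite strand 15 after it. The middle Txnrd1 start held TGACAAAGC on the opposite strand 92 bases before it, and the downstream start held none. A single match each stood in the windows of Nfe2l2 (TGACTCCGC, 240 before), Gclm (TGACGGTGC, 134 before) and Slc7a11 (TGAGAAAGC, 97 before). Keap1, Nqo1 and the most upstream Txnrd1 window (chr10:82833701-82834000) had no match within these bases. In all, 6 of the 10 windows held the letters, against 27.8% of all 32851 windows, and 4.68% of all windows held them 2 or more times, as those of Srxn1 and Prdx1 did. The Srxn1 match at 45 bases and the Prdx1 match at 133 bases overlap the AP-1 letters TGACTCA or TGAGTCA, which 5.20% of windows held. A match is a description of letters, not of binding.

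Of the 94 other genes of the pathway, chosen by role, 89 were tested and 8 passed in the authors' deposited table, 7 higher and 1 lower in smoke. That is 8.99% of them, close to the 7.69% of all genes. The estimates of 63 of the 89 were above zero, or 70.8%, against 49.7% of all genes tested, with a median log2 fold change of 0.11. After removal of the GC and length trend the median was 0.02 and 1 gene, Sod2, was past the threshold.

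Among 12 regulators, Gsk3b, a kinase that marks NRF2 for degradation, was the single call. It fell from 664.9 to 519 in the authors' deposited table, and the log2 difference was -0.35 (SE 0.12, adjusted p 0.0412). After trend removal it stood at -0.09 (adjusted p 0.886). The regulators' median was -0.0021, and 0.03 after trend removal. With no low-count filter Gsk3b did not pass (adjusted p 0.0648). Of 23 tested genes for glutathione synthesis and use, 1 rose. The list median was 0.25, and -0.0065 after trend removal. That gene was Gpx4, the peroxidase that reduces lipid peroxides, which went from 615.7 to 830.2 in the authors' deposited table, by 0.42 on the log2 scale (SE 0.12, adjusted p 0.016). Its value after trend removal was -0.014.

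Of 20 thioredoxin, glutaredoxin and peroxiredoxin genes, 2 rose. The list median was 0.22, and 0.13 after trend removal. Prdx5, a peroxiredoxin of mitochondria, peroxisomes and cytosol, rose in the authors' deposited table from 290.8 to 473.8, by 0.70 on the log2 scale (SE 0.14, adjusted p 0.000207). Exons of Prdx5 share 409 bases with Trmt112 on the opposite strand. Txn2, mitochondrial thioredoxin, rose in the authors' deposited table from 237 to 305, by 0.38 (SE 0.13, adjusted p 0.0464). After trend removal neither passed, with 0.42 (adjusted p 0.112) for Prdx5 and 0.17 (0.702) for Txn2. Txn2 also did not pass with no low-count filter (adjusted p 0.0732) or on the ratio of group means (0.0588).

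Sod2, mitochondrial superoxide dismutase, was the call among 5 genes for superoxide and peroxide removal. It rose from 252 to 390.4 in the authors' deposited table, by 0.64 on the log2 scale (SE 0.20, adjusted p 0.0295). After trend removal it stood at 0.91 (adjusted p 0.00297). The list median was -0.03, and -0.20 after trend removal. Of 7 genes that supply NADPH, Pgls of the pentose phosphate pathway rose in the authors' deposited table from 155 to 246, by 0.66 (SE 0.18, adjusted p 0.010). After trend removal it stood at 0.42 (adjusted p 0.293), and the median of that list was 0.21, or 0.16 after trend removal. Exons of Pgls share 776 bases with Fam129c on the same strand, so this value is uncertain.

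Of 6 genes of NADPH oxidase, the source of the macrophage respiratory burst, 2 rose. In the authors' deposited table Cyba, its membrane subunit p22phox, rose from 1135 to 1884, by 0.73 (SE 0.18, adjusted p 0.00263). Rac2, its small GTPase, rose there from 1609 to 2076, by 0.36 (SE 0.12, adjusted p 0.0439), also in the authors' deposited table. After trend removal neither passed, with 0.29 (adjusted p 0.575) for Cyba and 0.26 (0.394) for Rac2. Rac2 also did not pass with no low-count filter (adjusted p 0.0693). The list median was 0.19, and 0.12 after trend removal. None of the 16 tested genes among other NRF2 targets passed, and their median was 0.04, or -0.10 after trend removal. The most abundant were Fth1 and Ftl1, the ferritin chains, and Hmox1, heme oxygenase. In the authors' deposited table Fth1 averaged 15973 and 17641 (log2 difference 0.14, SE 0.27, adjusted p 0.816). Ftl1 averaged 10582 and 12732 there (0.27, SE 0.23, adjusted p 0.534), and -0.13 after trend removal. Hmox1 averaged 1323 and 1784 in the authors' deposited table (0.43, SE 0.38, adjusted p 0.551). After trend removal Fth1 stood at 0.02 and Hmox1 at 0.19.

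**Figure D3:**
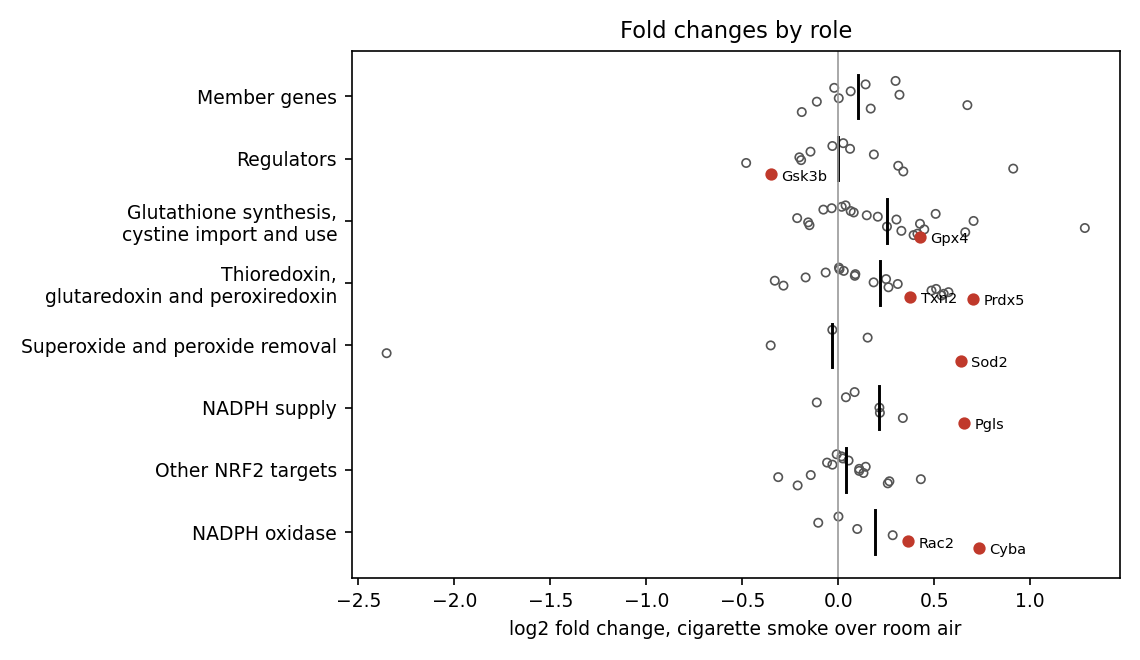
Log2 fold change, smoke over room air, of the member genes and of 7 lists of related genes, from the authors' deposited table. Each circle is a gene with an adjusted p, filled circles have an adjusted p under 0.05, and the black line is the list median. No member is filled, and 8 of the 89 other genes are.

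Splice junctions gave the values per library for these genes. The authors' deposited table of junction events (JuncBASE) gives a percent inclusion in each library, and 16 of its 10376 events lay in 5 members: 1 in Nfe2l2, 4 in Gclc, 6 in Gclm, 3 in Txnrd1 and 2 in Srxn1. None was called by limma on log2 odds of inclusion, where 0% of all events were called, and the adjusted p of the 16 ran from 0.161 to 0.960. At an unadjusted p under 0.05, 3 member events and 1125 of all events passed. Inclusion was lower in smoke on average in 12 of the 16 and higher in 4, and 66.2% of all events were lower. In 3 of the 16 every smoke value was below every room air value, against 18.3% of all events with that pattern and 4.47% with the reverse. The lowest corrected p of a member event in the authors' deposited table was 0.693. The first smoke library had no value for 6 of the 16, and 4169 of all 10376 events, while the first room air library lacked 398 and the others 1 to 189.

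The events with the lowest p were in the genes of glutathione synthesis. A retained intron of Gclc (chromosome 9, 77786850 to 77787276) was included at 5.56, 7.69 and 9.38% in room air, or 7.54% ± 1.91 (SD, n = 3), and at 0% in the 2 smoke libraries with a value. The smoke values were below the room air values (log2 odds -3.18, limma p 0.00138, adjusted p 0.161). Where a group is at 0 or 100%, the pseudocount of 1 point sets the size of the log2 odds, and with 5 points it was -1.42 (adjusted p 0.345). Of all 3305 retained introns in the table, 89.9% had a lower mean in smoke, with a median difference of -3.79 points, and 34.7% did not overlap in that direction. In Gclm the choice of acceptor after a donor at 122255611 on chromosome 3 favoured the annotated junction to 122259206 in every library. Counted on junction reads alone, it took 100% in each room air library and 91.7, 95.7 and 97.1% in smoke, or 94.8% ± 2.83 (SD, n = 3) (log2 odds -2.61, limma p 0.00179, adjusted p 0.177). With a pseudocount of 5 points the log2 odds were -1.06 (adjusted p 0.35). The other acceptors were at 122256553, 122256671 and 122256725. Whether reads of the pseudogene Gm6061, which shares exon bases with Gclm, entered these counts was not tested. The 6 Gclm events share that donor. For the same junctions the table also has an event that is not limited to junction reads, named after its values were seen. There the inclusion was 65.7, 62.8 and 77.5% in room air and 61.1, 66.7 and 59.6% in smoke, which overlapped (adjusted p 0.693 in limma). Without the third smoke library, the adjusted p of the junction-only Gclm event was 0.0217 in limma, when 1131 of all events passed. That count includes events left with a single smoke value. The Gclc intron was then left with a single smoke value, and its log2 odds stayed at -3.18.

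In Txnrd1 an intron (chromosome 10, 82874736 to 82875623) was retained at 5.56, 1.75 and 1.41% in room air and at 0% in all 3 smoke libraries (log2 odds -1.86, limma p 0.0135, adjusted p 0.306). With a pseudocount of 5 points the value was -0.66 (adjusted p 0.494). The groups did not overlap, and the first room air library was the highest. For this intron and that of Gclc, no read counts behind the percentages were used here, so 0% and a low retention cannot be told apart. The exons of the 2 printed Txnrd1 starts are compared by the other 2 events, named after their values were seen. The junction from 82860631, after the exon of the downstream start, to 82874612 took 85.7, 78.6 and 85.7% in room air and 72.7 and 80% in the 2 smoke libraries with a value (log2 odds -0.61, adjusted p 0.638 in limma). The exon of the middle start, with its donor at 82859301, joined the acceptor at 82860523, inside the exon of the downstream start, in 88.5, 89.5 and 91.2% of junction reads in room air and 91.7, 82.1 and 86.5% in smoke (log2 odds -0.33, adjusted p 0.763 in limma). The groups overlapped in both events. Since junctions from the middle start mostly led into the exon of the downstream start, these junctions do not give the share of each start.

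In Srxn1 a donor choice (junction 152105948 to 152108988 on chromosome 2) was included at 100 and 100% in the 2 room air libraries with a value and at 92.9, 85.7 and 100% in smoke, which overlapped (log2 odds -2.43, adjusted p 0.524 in limma). The value was -1.18 (adjusted p 0.434) with a pseudocount of 5 points, -1.57 (0.697) without the second smoke library and -3.64 (0.0462) without the third. In Nfe2l2 an alternative last exon (junction 75692373 to 75704363) was included at 6.85, 5.63 and 4.76% in room air, or 5.75% ± 1.05, and at 3.23, 4.65 and 9.27% in smoke, or 5.72% ± 3.16 (SD, n = 3 each). The smoke values spanned the room air range on both sides (log2 odds -0.10, adjusted p 0.941 in limma). No event of Keap1, Slc7a11, Gsr, Prdx1 or Nqo1 was in the table. In the authors' deposited rMATS table, 2 Txnrd1 introns were listed and neither passed a false discovery rate of 0.05 (FDR 0.319 and 1), where 14.5% of 3887 introns did.

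**Figure D4:**
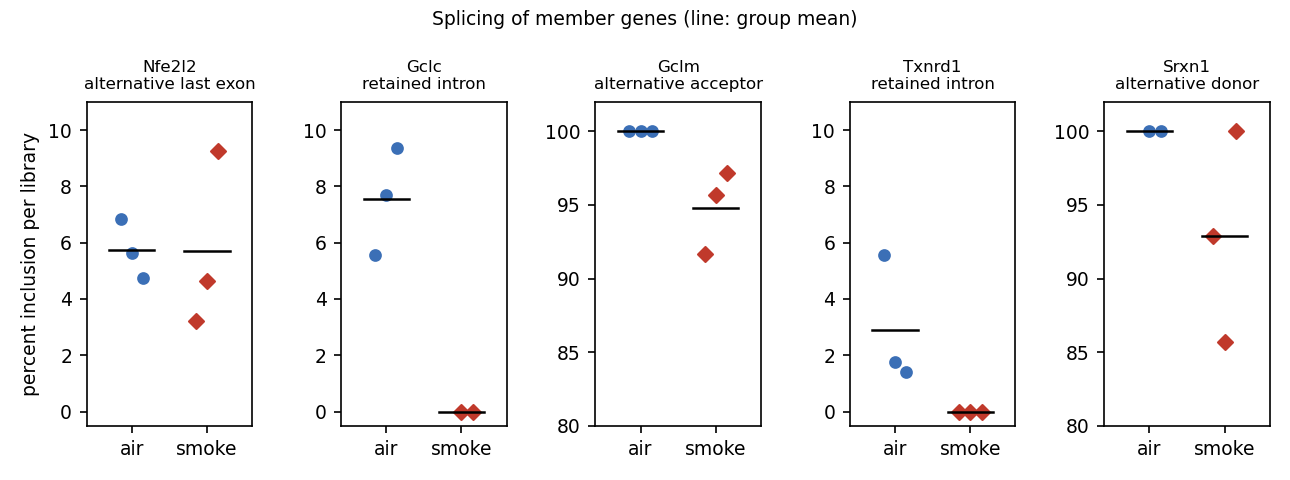
Percent inclusion per library of the event with the lowest limma p in each of 5 member genes, room air beside smoke, with a line at each group mean. The y-axes differ between panels. In Gclc, Gclm and Txnrd1 every smoke point lies below every room air point, and in Nfe2l2 and Srxn1 the groups overlap.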

How the data were processed

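Gene expression was taken from a table deposited by the authors, whose signal columns hold mean normalized counts (scaled by size factors, per the file headers) for each group and for 24 libraries. Its log2 fold changes and standard errors, Wald score, p-values and adjusted p-values come from the authors' DESeq2 fit to all 24 libraries, as deposited. The fold change column correlated with the log2 ratio of group means at 0.999 across 9020 genes. Percent inclusion per library is the authors' deposited JuncBASE output. The retained-intron table deposited by the authors holds a difference, p-values and false discovery rates, and 6 columns of per-sample values there were not used because the sample sets are not named. The authors' tools and build, per the submitters' processing notes, were mm10, STAR, DESeq2, SAMtools 1.9 and bedtools 2.27.1, with no role given. Depth per library is not given in the sources used here, so no interval from counts was made.

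Wald intervals were computed at 95%. The trend in GC content and log2 length was removed by a weighted fit of natural splines (4 degrees of freedom) (statsmodels 0.14.6, patsy 1.0.2). Percent inclusion was tested as log2 odds with a pseudocount of 1 point in limma 3.58.1 (R 4.3.3), with group as the only term and Benjamini-Hochberg adjustment over all 10376 events. Both procedures were tested on simulated data, where the splicing test missed most of the smaller changes. GENCODE annotation on GRCm38 gave positions and overlaps, and its longest transcript of each gene gave length and GC content.

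Members and lists were chosen with earlier results of these data known. Named were every member, every list gene past an adjusted p of 0.05 (up to 6 a list, otherwise the 3 with the highest mean), and the event with the lowest limma p in each member. Alternatives were a threshold of 0.1, no low-count filter, a mean of at least 50, a ratio with a pseudocount of 1, trend removal, other scales for inclusion, a replicate block and leaving out each library.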

Additional observations from a re-analysis of the deposited data

How the results depend on the processing

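No member gene passed under any of the 5 expression alternatives run. Only 2 of these can move a fold change: the ratio of group means turned no member's sign, and trend removal turned those of Keap1 and Prdx1. The count of other pathway genes was 8, and became 5 with no low-count filter (Gsk3b, Txn2 and Rac2 lost), 7 on the ratio of means (Txn2 lost), 12 at a threshold of 0.1 and 1 (Sod2) after removal of the GC and length trend, when the count over all genes fell to 153. With a threshold of 0.1 the count over all genes was 1547. Trend removal turned Keap1 to -0.0086, Prdx1 to 0.036, Gpx4 to -0.014 and Ftl1 to -0.13. Leaving out a library gave 0 member splicing events, except without cigarette smoke replicate 3. There the named events of Gclm (adjusted p 0.0217 in limma) and Srxn1 (0.0462) passed, when 1131 of all events passed. That count includes events left with a single smoke value. The Gclc event was among those so left, and its log2 odds were -3.18. The Nfe2l2 event ranged from -0.48 to 0.21, being 0.03 without room air replicate 1 and 0.21 without cigarette smoke replicate 1. The cause was not tested. With a replicate block, 0 member events and 0 of all events passed, and same-numbered samples had correlations of 0.018, -0.040 and -0.089, so the numbers were not taken as a pairing. Events with values in all 6 libraries gave 23 calls of 5933 and untransformed percentages 5 of 10376, none in a member, and a pseudocount of 5 points gave 0. Having 3 libraries a group and the missing values of the first smoke library limit the precision.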
